A study of Homo sapiens with 9 samples.

Results

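The 8 genes followed here are used to tell epithelial from mesenchymal cells. They were measured in ACHN cells, a line of human renal cell carcinoma, treated with the mitochondrial complex I inhibitor piericidin A. They are the cadherins CDH1 and CDH2, the adhesion molecule EPCAM, the keratins KRT8 and KRT18, the filament protein VIM, and the transcription factors ZEB1 and SNAI2. They were taken by gene symbol, and all 8 were found among the 30673 genes of the deposited table. RNA was sequenced from 9 libraries, 3 per treatment: the vehicle DMSO at 0.1%, the inhibitor at 25 nM, and the inhibitor at 50 nM. All cells were adherent ACHN cells of 1 line in MEM. The labels do not say how long the cells were treated, whether piericidin A cells also held DMSO, or whether the libraries of a group came from separate cultures. The p-values therefore measure the spread between these libraries, which may be technical.

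Epithelial cells hold on to each other through E-cadherin, the product of CDH1, and carry keratin filaments. Mesenchymal cells carry N-cadherin, the product of CDH2, and vimentin, the product of VIM. ZEB1 and SNAI2 are transcription factors that repress CDH1 by binding E-boxes, short DNA motifs, and they drive the shift from the epithelial to the mesenchymal state. Proximal tubule cells of the kidney and tumours derived from them are known to be unusual among epithelia, in that they hold N-cadherin and often vimentin beside keratins.

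The promoter of ZEB1 is shown because ZEB1 is the repressor that fell most clearly here, and that of VIM because VIM moved the other way at 25 nM. Each line gives the 250 bases before a transcription start, from RefSeq on GRCh38.p14, with the E-box CACCTG or its reverse complement CAGGTG in capitals. The ZEB1 window is chr10:31318167-31318416 on the plus strand, and the VIM window is chr10:17227991-17228240 on the plus strand.
ZEB1: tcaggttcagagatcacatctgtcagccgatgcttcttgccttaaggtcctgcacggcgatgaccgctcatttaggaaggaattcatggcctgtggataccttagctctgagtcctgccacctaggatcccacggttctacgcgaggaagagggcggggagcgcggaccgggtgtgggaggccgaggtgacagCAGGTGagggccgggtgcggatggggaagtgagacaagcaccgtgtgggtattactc
VIM: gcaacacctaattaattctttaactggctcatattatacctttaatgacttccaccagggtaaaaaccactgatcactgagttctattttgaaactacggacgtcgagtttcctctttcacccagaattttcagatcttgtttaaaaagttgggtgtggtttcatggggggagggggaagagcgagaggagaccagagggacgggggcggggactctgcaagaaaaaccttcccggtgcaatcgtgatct
The ZEB1 window held 1 copy of the motif and the VIM window held 0. Of the 7 ZEB1 starts that RefSeq lists, 2 had the motif. Of all 35116 promoter windows of the same length, 17.5% held it on either strand. Promoter entries were matched for 4 of the 8 genes, and the windows of both CDH2 starts and of the KRT8 start held 0 copies. That KRT8 start lies 23485 bases from the deposited start of KRT8, against 78 bases for ZEB1 and 18 for VIM. A match describes these letters and is not a binding site.

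Whole fragments recovered from the deposited FPKM (fragments per kilobase of gene, scaled to library depth) numbered 24365472 to 29245674 per library. The renal epithelial factor PAX8 averaged 71.3 ± 1.26 FPKM in DMSO cells, 67.0 ± 0.859 FPKM in 25 nM cells and 87.9 ± 4.97 FPKM in 50 nM cells (SD over 3 libraries). Of 7 tested renal epithelial markers, 1 rose and 4 fell at 25 nM, and 3 rose and 4 fell at 50 nM, while CUBN and MME averaged under 0.1 FPKM in each group. Over all tested genes, 26.3% rose and 25.8% fell at 25 nM, and 29.2% rose and 31.5% fell at 50 nM. Summed over their markers with values, leukocyte genes reached at most 0.18, 0.239 and 0.174 FPKM in DMSO, 25 nM and 50 nM libraries, and endothelial genes at most 0.0303, 0.0294 and 0.0273 FPKM. The summed fibroblast markers reached 0.943, 0.687 and 0.949 FPKM. Sums of FPKM were higher in every treated library than in every DMSO library. They were 249274 to 255396 in DMSO, 278870 to 310119 at 25 nM and 276520 to 293816 at 50 nM. No alternative scaled the libraries to these sums, so their part in the rises below was not tested. The 25 nM replicate 3 stood apart, with a sum of FPKM of 310119 against 278870 and 281540 in the other libraries of its group. It held the highest VIM, KRT8, KRT18, EPCAM and SNAI2 and the lowest ZEB1 and CDH2 of its group. The fits of the 7 tested genes were repeated without it, while SNAI2, the ratios and the related lists were not.

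In DMSO cells the order of levels per length was VIM, KRT8, CDH2, KRT18, EPCAM, ZEB1, CDH1 and SNAI2, and no 2 neighbours overlapped between libraries. VIM averaged 254 ± 5.81 FPKM and KRT8 112 ± 2.25 FPKM in these cells, while CDH1 averaged 3.50 ± 0.159 FPKM and SNAI2 0.510 ± 0.121 FPKM (SD, n = 3). N-cadherin transcript thus stood above E-cadherin transcript by a factor of 18.4 to 20.7 in the 3 DMSO libraries. The order of the means was the same at both doses, but at 25 nM the libraries of CDH2 and KRT18 overlapped.

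**Figure D1:**
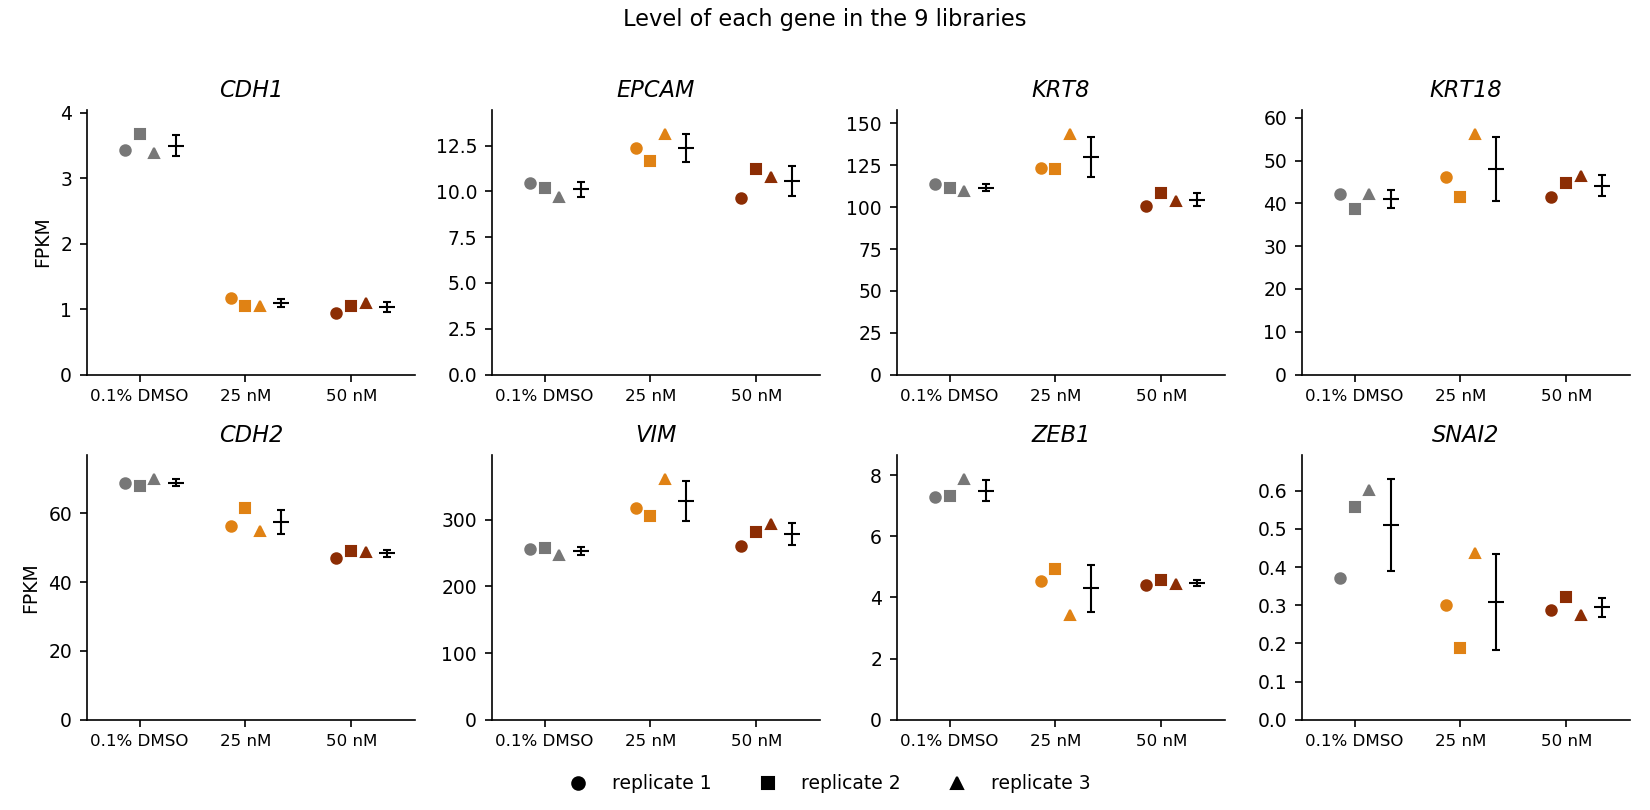
FPKM of each gene (vertical axes, from 0) in the 9 libraries by treatment; symbols mark the replicate, and the bar gives the mean ± SD of 3 libraries. CDH1 lay between 0.939 and 1.17 FPKM in all 6 piericidin A libraries and between 3.38 and 3.68 FPKM in the DMSO libraries, and KRT18 overlapped between all groups.

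The comparison of 25 nM and of 50 nM with DMSO asked which of these genes respond to the inhibitor. Levels were compared with limma on log2(FPKM + 0.1) across all 15541 genes that reached 0.5 FPKM in 3 or more libraries, with Benjamini-Hochberg adjustment over all of them. Fold changes are on that scale, which understates those of low genes. Of the 8 genes, 7 passed this filter and SNAI2 did not. At 25 nM, 3 of the 7 rose (VIM, EPCAM and KRT8) and 3 fell (CDH1, ZEB1 and CDH2), where 52% of all tested genes were called, 26.3% higher and 25.8% lower. At 50 nM, 0 rose and 3 fell (CDH1, ZEB1 and CDH2), where 60.7% of all tested genes were called, 29.2% higher and 31.5% lower. The count that rose at 50 nM was also 0 at an unadjusted p under 0.05 in the same limma fit. With voom on recovered fragments, at an adjusted p under 0.05, it was 1, VIM. A call alone therefore sets none of these genes apart, and the sizes below are read against the whole table. In RNA from whole cultures, fewer cells that hold a transcript and less of it per cell cannot be told apart.

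CDH1 (ENSG00000039068, hg38 chromosome 16, 68737225 to 68835548) encodes E-cadherin, the calcium-dependent adhesion protein of epithelial junctions. It had 3.44, 3.68 and 3.38 FPKM in DMSO, 1.17, 1.05 and 1.05 FPKM at 25 nM and 0.939, 1.05 and 1.09 FPKM at 50 nM. Every piericidin A library lay far below every DMSO library, and the doses overlapped each other. Behind these levels were 575, 609 and 610 fragments in DMSO, 178, 168 and 157 fragments in 25 nM cells, and 150, 169 and 184 fragments in 50 nM cells. The mean FPKM of CDH1 was 3.21-fold lower at 25 nM (log2 fold change -1.60, SE 0.09, limma adjusted p = 3.11e-06) and 3.40-fold lower at 50 nM (log2 fold change -1.67, SE 0.09, limma adjusted p = 1.22e-06). Of all tested genes, 2.87% had a larger absolute log2 fold change at 25 nM and 6.42% at 50 nM. Between the doses the log2 fold change was -0.08 with a 95% interval of -0.27 to 0.12, which was not called (limma adjusted p = 0.522). It was called under quantile normalization, at -0.38 with adjusted p = 0.0234.

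ZEB1 (ENSG00000148516, chromosome 10, 31318495 to 31529814), a zinc finger repressor of CDH1, also fell at both doses. It had 7.29, 7.31 and 7.88 FPKM in DMSO, 4.55, 4.92 and 3.43 FPKM at 25 nM and 4.40, 4.58 and 4.45 FPKM at 50 nM. The lowest DMSO library stood above the highest treated one, and the 25 nM replicate 3 was the lowest of all. The log2 fold change was -0.80 at 25 nM (SE 0.11, limma adjusted p = 3.97e-04) and -0.73 at 50 nM (SE 0.11, limma adjusted p = 4.54e-04). With the gene length trend removed it was -0.63 at 25 nM and -0.58 at 50 nM. Without the 25 nM replicate 3 it was -0.65 at 25 nM. Of all tested genes, 12.2% had a larger absolute log2 fold change at 25 nM and 21.9% at 50 nM. The difference between the doses was 0.07 on the log2 scale (95% interval -0.18 to 0.33, limma adjusted p = 0.651) and turned to -0.08 without the 25 nM replicate 3. CDH1 and its repressor ZEB1 were thus both lower in every treated library.

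SNAI2 (ENSG00000019549, chromosome 8, 48917690 to 48921740) encodes the repressor SLUG. It had 0.372, 0.556 and 0.601 FPKM in DMSO, 0.302, 0.186 and 0.436 FPKM at 25 nM and 0.288, 0.321 and 0.274 FPKM at 50 nM. The 50 nM libraries all lay below the DMSO libraries, while those of 25 nM overlapped both. These levels rest on 23, 34 and 40 fragments in DMSO, 17, 11 and 24 in 25 nM cells, and 17, 19 and 17 in 50 nM cells. The exact two-sided permutation p was 0.2 at 25 nM and 0.1 at 50 nM, and 0.1 is the smallest that 3 against 3 libraries can give. With no filter on low values the log2 fold change was -0.61 at 25 nM (limma adjusted p = 0.144) and -0.61 at 50 nM (limma adjusted p = 0.114), so no difference was detectable at this depth.

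CDH2 (ENSG00000170558, chromosome 18, 27950966 to 28177446) encodes N-cadherin, the cadherin of mesenchymal and neural cells and of the proximal tubule. It had 68.7, 67.9 and 70.0 FPKM in DMSO, 56.2, 61.4 and 54.8 FPKM at 25 nM and 47.0, 49.0 and 48.9 FPKM at 50 nM. The 3 groups were fully separated and stepped down with dose. The log2 fold change was -0.26 at 25 nM (SE 0.05, limma adjusted p = 0.00149), -0.51 at 50 nM (SE 0.05, limma adjusted p = 2.16e-05) and -0.25 for 50 nM against 25 nM (SE 0.05, limma adjusted p = 0.00416). Of all tested genes, 54.9% had a larger absolute log2 fold change at 25 nM and 35.4% at 50 nM. The step between the doses was -0.08 and not called under quantile normalization (adjusted p = 0.289), and -0.15 scaled to fragment totals (adjusted p = 0.0454).

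VIM (ENSG00000026025, chromosome 10, 17228259 to 17237593) encodes vimentin, the intermediate filament of mesenchymal cells. It had 257, 257 and 247 FPKM in DMSO, 318, 305 and 361 FPKM at 25 nM and 261, 281 and 294 FPKM at 50 nM. Each treated library stood above each DMSO library, and each 25 nM library above each 50 nM library. VIM rose at 25 nM (log2 fold change 0.37, SE 0.07, limma adjusted p = 0.00185). A larger absolute change than that of VIM was seen in 40.9% of all tested genes at 25 nM and in 79.0% at 50 nM. The size of this rise depends on scaling, since quantile normalization gave 0.04 with adjusted p = 0.361. At 50 nM the log2 fold change was 0.13 (95% interval -0.02 to 0.29) and was not called (limma adjusted p = 0.118). It was called in 5 of 22 alternatives. These included scaling to fragment totals (0.20, adjusted p = 0.0114) and removal of the gene length trend (0.21, adjusted p = 0.0122). The value stayed at 0.13 and was called without the 25 nM replicate 3 (adjusted p = 0.0290) and with only the 6 libraries compared (adjusted p = 0.0416). Relative to 25 nM, VIM was lower at 50 nM by -0.23 on the log2 scale (limma adjusted p = 0.0281), a call lost in 8 of 22 alternatives. It was lost without the 50 nM replicate 1 (adjusted p = 0.101) or 2 (adjusted p = 0.0611), with no filter (adjusted p = 0.0531) and with only the 6 libraries compared (adjusted p = 0.0787). The value was -0.14 both scaled to fragment totals (adjusted p = 0.103) and with voom (adjusted p = 0.0626), and -0.06 under quantile normalization (adjusted p = 0.276).

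EPCAM (ENSG00000119888, chromosome 2, 47345158 to 47387601) encodes an adhesion molecule of the epithelial surface. It had 10.5, 10.2 and 9.67 FPKM in DMSO, 12.4, 11.6 and 13.1 FPKM at 25 nM and 9.63, 11.2 and 10.8 FPKM at 50 nM. The 25 nM libraries stood above all others, while 50 nM and DMSO overlapped. EPCAM rose at 25 nM (log2 fold change 0.29, SE 0.07, limma adjusted p = 0.00630), and this call held in all 22 alternatives run. The value was 0.16 where the gene length trend was removed, and no alternative scaled the libraries to their sums of FPKM. At 50 nM the log2 fold change was 0.06 (95% interval -0.09 to 0.21, limma adjusted p = 0.466). Larger absolute changes were seen in 50.9% of all tested genes at 25 nM and in 90.5% at 50 nM. The difference of 50 nM from 25 nM was -0.23 (limma adjusted p = 0.0299), a call lost in 12 of the 22 alternatives. Among these were the omissions of replicate 1 or 3 of 25 nM (adjusted p = 0.0688 and 0.0636) and of replicate 1 or 3 of 50 nM (adjusted p = 0.0988 and 0.0509).

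KRT8 (ENSG00000170421, chromosome 12, 52897187 to 52949954) and KRT18 (ENSG00000111057, chromosome 12, 52948871 to 52952901) encode the keratins of simple epithelia, which pair with each other in 1 filament. KRT8 had 114, 111 and 110 FPKM in DMSO, 123, 123 and 144 FPKM at 25 nM and 101, 109 and 104 FPKM at 50 nM. In the deposited FPKM the 25 nM libraries were the highest and those of 50 nM the lowest, with no overlap of the 3 groups. The gap between 50 nM and DMSO was narrow, with at most 108.8 FPKM against at least 109.5 FPKM. This separation was not checked under other scalings. KRT8 rose at 25 nM (log2 fold change 0.22, SE 0.06, limma adjusted p = 0.0169), a call lost without the DMSO replicate 3 (adjusted p = 0.0588) and under quantile normalization (0.06, adjusted p = 0.273). Without the 25 nM replicate 3 it was 0.14 (adjusted p = 0.0130), and with the gene length trend removed 0.33 (adjusted p = 0.00242). At 50 nM it differed from DMSO by -0.10 (95% interval -0.24 to 0.05, limma adjusted p = 0.215), which was called without the 25 nM replicate 3 (adjusted p = 0.0336). Scaled to fragment totals this difference was -0.03 (adjusted p = 0.698). Absolute changes larger than that of KRT8 were seen in 62.1% of all tested genes at 25 nM and in 85.0% at 50 nM. KRT8 was lower at 50 nM than at 25 nM by -0.31 on the log2 scale (SE 0.06, limma adjusted p = 0.00557).

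KRT18 had 42.3, 38.6 and 42.2 FPKM in DMSO, 46.2, 41.6 and 56.3 FPKM at 25 nM and 41.5, 44.7 and 46.4 FPKM at 50 nM. All groups overlapped, and KRT18 was the tested gene with no call in any comparison. Its log2 fold change was 0.22 at 25 nM (95% interval -0.01 to 0.44, limma adjusted p = 0.0961) and 0.11 at 50 nM (95% interval -0.12 to 0.33, limma adjusted p = 0.375). The share of all tested genes with a larger absolute change was 62.2% at 25 nM and 83.3% at 50 nM. Without the 25 nM replicate 2 the 25 nM comparison was called, at 0.31 with adjusted p = 0.0179, and without the 25 nM replicate 3 it was 0.10 with adjusted p = 0.255.

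**Figure D2:**
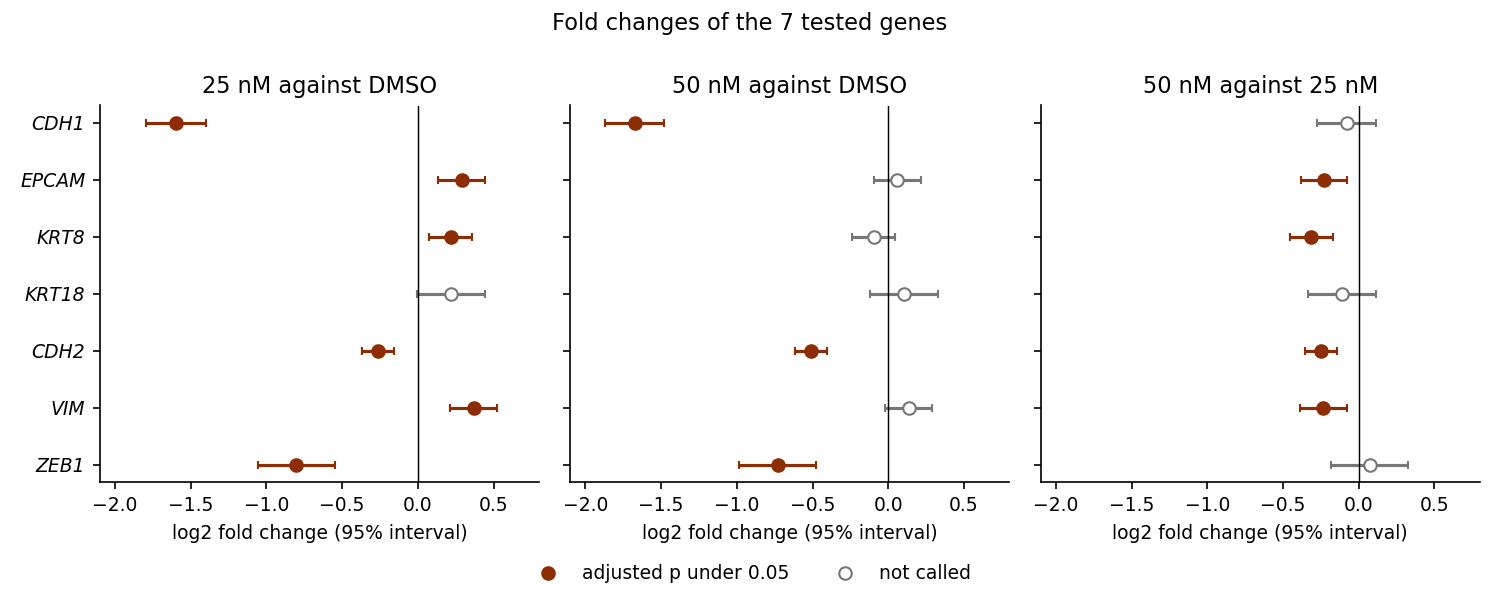
Log2 fold changes of the 7 tested genes (horizontal axes) with 95% intervals from the limma fit, in each comparison; filled points have an adjusted p under 0.05. CDH1 and ZEB1 stand apart from 0 at both doses, at -1.60 and -0.80 at 25 nM and -1.67 and -0.73 at 50 nM, and near 0 between the doses.

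The comparison of 50 nM with 25 nM asked whether the response grows with dose. Of the 7 tested genes, 0 rose and 4 fell (KRT8, CDH2, VIM and EPCAM), where 33.5% of all tested genes were called, 14.7% higher and 18.8% lower. Of these 4, 3 had risen at 25 nM and were not called at 50 nM against DMSO, and CDH2 was the one that fell further. Of those that had risen, VIM at 50 nM lay above DMSO in every library of the deposited FPKM, and EPCAM overlapped DMSO. KRT8 lay narrowly below DMSO in every library, at most 108.8 FPKM against at least 109.5 FPKM. Without the 50 nM replicates 1 and 2, 0 of the 7 were called, with KRT8 at -0.32, CDH2 at -0.23, EPCAM at -0.19 and VIM at -0.16; the call of KRT8 was also lost under quantile normalization (-0.06). Libraries of the groups did not overlap in 6 of the 7 tested genes at 25 nM (62.6% of all tested genes), 3 of them higher (31.5%) and 3 lower (31.1%). At 50 nM this held for 5 (70.4% of all tested genes), with VIM higher (33.9%) and 4 lower (36.5%). Between the doses it held for 4 (45.4% of all tested genes), of which 0 were higher (21%) and 4 lower (24.4%).

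Ratios of FPKM within a library do not change when a library is multiplied by 1 factor, but they do under quantile normalization. The ratio of CDH2 to CDH1 was 20.0, 18.4 and 20.7 in DMSO, 48.2, 58.3 and 52.0 in 25 nM cells, and 50.0, 46.5 and 44.6 in 50 nM cells. The cadherin balance moved further toward N-cadherin although CDH2 itself fell, since CDH1 fell more. The ratio of VIM to KRT8 averaged 2.27 ± 0.0321 in DMSO cells, 2.52 ± 0.0511 in 25 nM cells and 2.67 ± 0.141 in 50 nM cells (SD over 3 libraries), and was higher in each treated library than in each DMSO library. Under quantile normalization VIM and KRT8 did not separate in this way: VIM was 0.04 at 25 nM and -0.01 at 50 nM on the log2 scale, and KRT8 was 0.06 in the first comparison and -0.01 in the other. The ratio of VIM to KRT18 averaged 6.19 ± 0.42 in DMSO cells, 6.88 ± 0.459 in 25 nM cells and 6.31 ± 0.0232 in 50 nM cells, and the 50 nM libraries (6.29, 6.29 and 6.33) lay inside the DMSO range of 5.85 to 6.66. The ratio of KRT8 to KRT18 was 2.73 ± 0.147, 2.73 ± 0.208 and 2.37 ± 0.113, so that the 50 nM libraries were the lowest. These ratios were not tested.

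**Figure D3:**
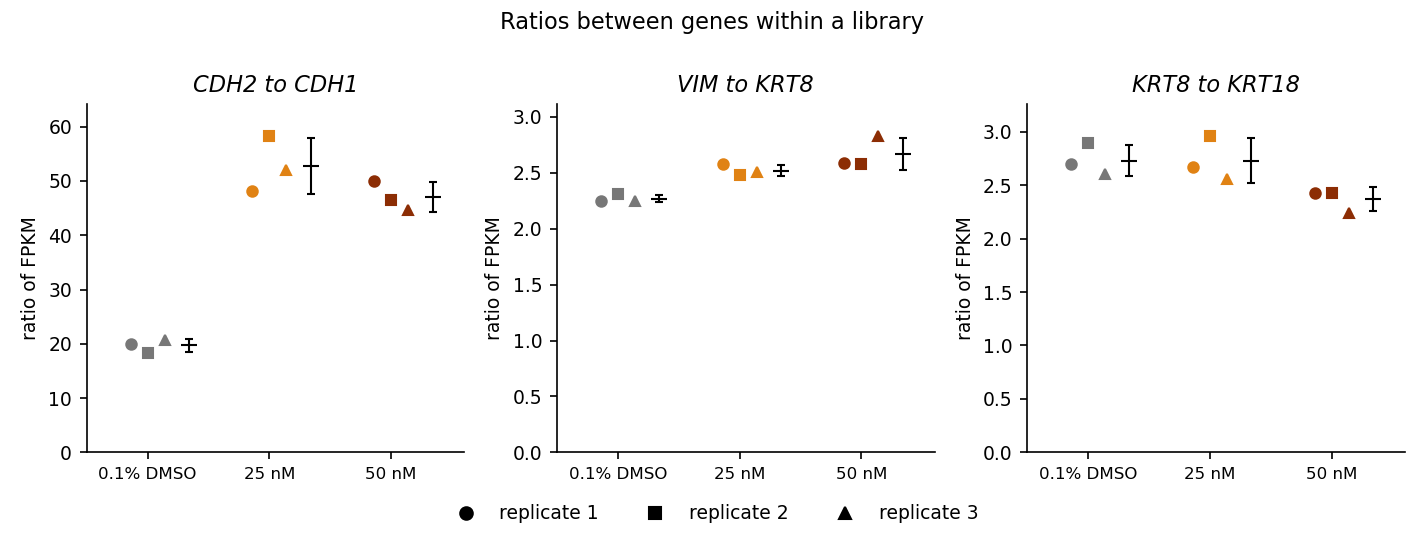
Ratios of FPKM between 2 genes within each library (vertical axes, from 0) by treatment; symbols mark the replicate, and bars give the mean ± SD of 3 libraries. The ratio of CDH2 to CDH1 is 44.6 to 58.3 in piericidin A libraries and 18.4 to 20.7 in DMSO libraries.

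Other genes share exons with these in the GENCODE 29 annotation of GRCh38, and the labels do not say whether counting used the strand. KRT8 and KRT18 lie on opposite strands and share 525 exonic bases, so reads there could count for either. VIM shares 641 exonic bases with the antisense gene VIM-AS1, which averaged 0.231 FPKM in DMSO, 0.249 FPKM at 25 nM and 0.272 FPKM at 50 nM. ZEB1 shares 366 with ZEB1-AS1, which averaged 1.04, 0.935 and 0.909 FPKM in the same groups. CDH2 shares 136 with the antisense gene AC110015.1, which averaged 0.495, 0.756 and 1.38 FPKM in DMSO, 25 nM and 50 nM cells. CDH1 shares 347 with the antisense gene AC099314.1, and VIM 619 with AL133415.1; neither of these was analysed here. EPCAM shares 0. The part of shared exons in the results was not tested. Processed copies of the keratin genes could also take reads: fragments of the 15 KRT8 pseudogenes were 0.490 to 0.588% of the KRT8 sum in DMSO, 0.562 to 0.729% at 25 nM and 0.974 to 1.44% at 50 nM. With the fragments of the 15 KRT8 and 20 KRT18 pseudogenes added, the log2 fold changes of KRT8 were 0.22 at 25 nM and -0.09 at 50 nM, and those of KRT18 0.22 and 0.11.

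Of 9 tested partners of the cadherins at the adherens junction, 1 rose and 6 fell at 25 nM (median log2 fold change -0.15), and 0 rose and 6 fell at 50 nM (median -0.33), where the median of all tested genes was 0.02 and 0.00. Over all tested genes, 26.3% rose and 25.8% fell at 25 nM, and 29.2% rose and 31.5% fell at 50 nM. Counts in this list and those below are read against these shares, and no list was tested as a set. The counts and medians of the lists were not recomputed under any alternative, such as removal of the gene length trend. Scaling to fragment totals moved the median of all tested genes by 0.07 at 50 nM against DMSO. Plakoglobin, the catenin JUP shared with desmosomes, averaged 38.2 ± 0.881 FPKM in DMSO, 25.6 ± 0.673 FPKM at 25 nM and 19.8 ± 1.11 FPKM at 50 nM (log2 fold change -0.58 and -0.95). The catenins CTNNA1 (-0.34) and CTNND1 (-0.42), which link and stabilise cadherins, fell at 50 nM. Among the other cadherins, 1 of 4 rose and 2 fell at 25 nM, and 1 rose and 3 fell at 50 nM. CDH4 (-0.66) and CDH13 (-0.25) fell at 50 nM, and CDH24 (0.54) rose.

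Genes of the other epithelial junctions fell more often than they rose, where 25.8% of all tested genes fell at 25 nM and 31.5% at 50 nM. The shares that rose were 26.3% and 29.2%. Of 20 tested tight junction and polarity genes, 0 rose and 12 fell at 25 nM (median -0.28), and 2 rose and 14 fell at 50 nM (median -0.36). The claudin CLDN1 averaged 125 ± 1.91 FPKM at 50 nM, against 170 ± 2.50 FPKM in DMSO (log2 fold change -0.44). The polarity scaffold PARD3 fell by 0.50 at 25 nM and by 0.49 at 50 nM on the log2 scale, and the scaffold SCRIB rose at 50 nM (0.49). Of 7 desmosome genes, 0 rose and 3 fell at 25 nM (median -0.13), and 1 rose and 5 fell at 50 nM (median -0.50). The desmosomal cadherin DSG2 (-0.64), the plakophilin PKP2 (-0.50) and periplakin PPL (-0.84) fell at 50 nM, and envoplakin EVPL (0.25) rose.

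Of 7 tested keratins and keratin linkers, 0 rose and 3 fell at 25 nM (median -0.05), and 1 rose and 4 fell at 50 nM (median -0.26). KRT19, a keratin that pairs with KRT8, averaged 307 ± 6.29 FPKM in DMSO, 230 ± 20.6 FPKM at 25 nM and 192 ± 7.72 FPKM at 50 nM (log2 fold change -0.42 and -0.68). KRT80 (-0.36) and the linker PLEC (-0.26) fell at 50 nM, and KRT7 (0.39) rose. Of 8 other intermediate filament genes, 1 rose and 3 fell at 25 nM (median -0.12), and 0 rose and 4 fell at 50 nM (median -0.27). The neurofilament NEFL (-1.02), internexin INA (-0.79) and nestin NES (-0.60) fell at 50 nM. Of 9 relatives, partners and proteases of EPCAM, 1 rose and 6 fell at 25 nM (median -0.26), and 1 rose and 7 fell at 50 nM (median -0.52). Here the adhesion receptor CD44 (-0.49) and the protease inhibitor SPINT1 (-0.69) fell at 50 nM, and PSEN2 (0.44) rose.

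Regulators moved both ways, where 26.3% of all tested genes rose and 25.8% fell at 25 nM. At 50 nM these shares were 29.2% and 31.5%. Of 10 tested epithelial transcription and splicing regulators, 1 rose and 3 fell at 25 nM (median -0.10), and 3 rose and 4 fell at 50 nM (median -0.02). These 10 include the microRNA hairpins MIR200A, MIR200B and MIR429, whose group means were 0 to 1.14 FPKM. Their log2 fold changes at 50 nM were 1.458, 1.965 and -0.564 (SE 0.879, 0.637 and 1.19), and MIR200B was called. The counts and medians were not recomputed without them. The epithelial factor ELF3 rose at 25 nM and 50 nM (log2 fold change 0.85 and 0.93), and KLF5 fell (-0.46 and -0.65). Of 20 other EMT (epithelial to mesenchymal transition) transcription factors, cofactors of ZEB1 and regulators of factor stability, 1 rose and 9 fell at 25 nM (median -0.21), and 3 rose and 10 fell at 50 nM (median -0.28). SOX9 (-1.79), the kinase GSK3B (-0.88) and the ubiquitin ligase subunit BTRC (-0.70) fell at 50 nM, and the ZEB1 corepressor CTBP1 (0.27) rose. Its paralog CTBP2, looked up after the values were seen, fell at both doses (-0.24 and -0.42). The paralog ZEB2 and the SNAI2 paralog SNAI1 were looked up after the values were seen: ZEB2 fell at 25 nM (-0.40, limma adjusted p = 0.00230) and was not called at 50 nM (-0.16), and SNAI1 was not called at either dose (0.19 and -0.03).

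Of 19 tested mesenchymal markers, 2 rose and 6 fell at 25 nM (median 0.00), and 3 rose and 11 fell at 50 nM (median -0.25). Among all tested genes, 26.3% rose and 25.8% fell at 25 nM, and 29.2% rose and 31.5% fell at 50 nM. The receptor kinase AXL averaged 97.9 ± 1.73 FPKM in DMSO, 86.0 ± 0.972 FPKM at 25 nM and 73.7 ± 0.686 FPKM at 50 nM (log2 fold change -0.19 and -0.41). FSTL1 (-0.57) and the ectonucleotidase NT5E (-0.84) fell at 50 nM, and the actin-binding TAGLN (1.07) rose.

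**Figure D4:**
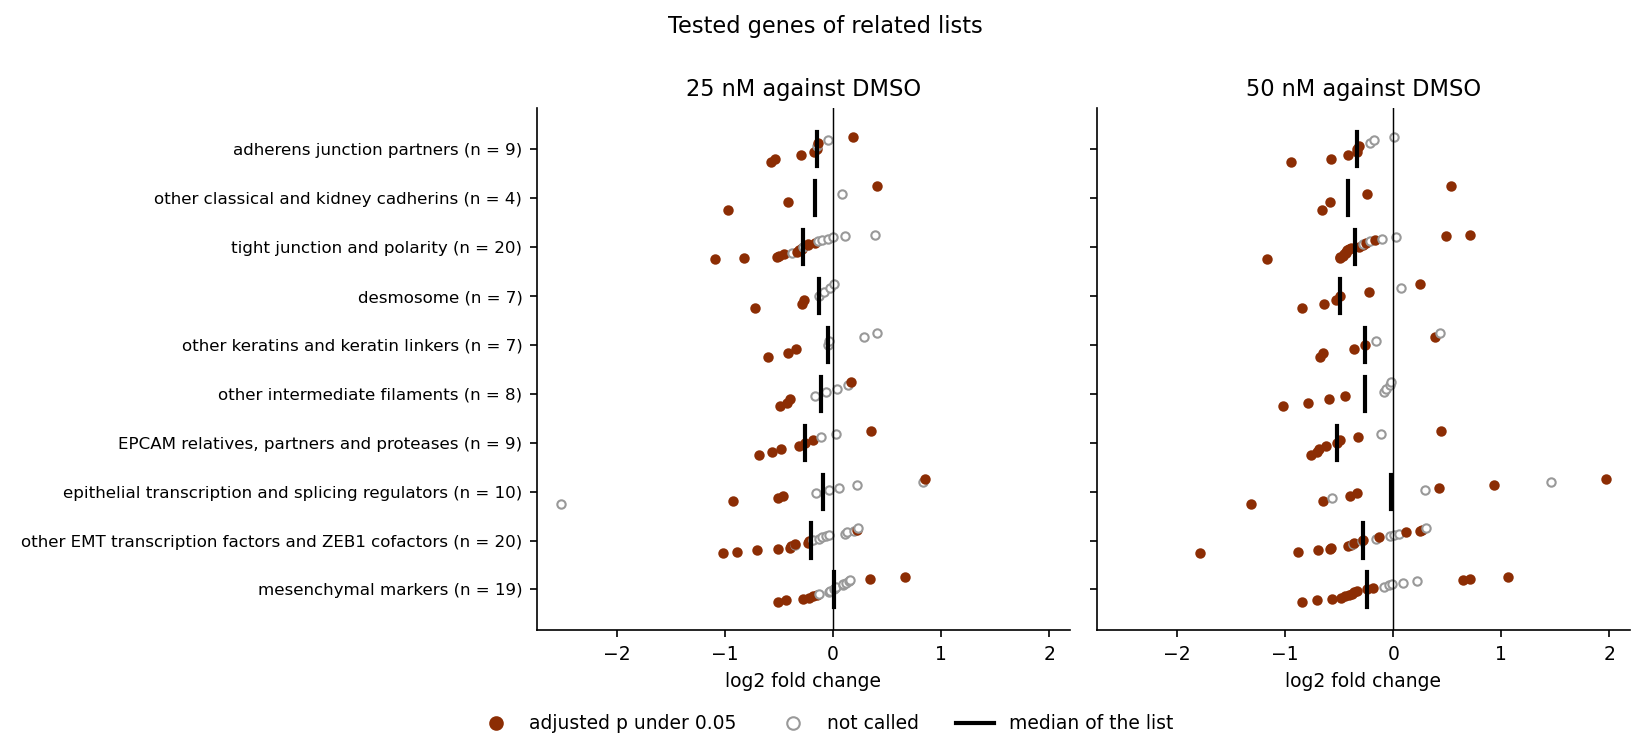
Log2 fold change (horizontal axes) of each tested gene in 10 related lists at 25 nM and at 50 nM against DMSO; filled points have an adjusted p under 0.05 and the black bar is the median of the list. The medians at 50 nM run from -0.52 for EPCAM relatives to -0.02 for epithelial regulators. The epithelial regulators include the low microRNA hairpins MIR200A, MIR200B and MIR429.

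Genes whose profile over the 9 libraries was most like that of a member, among 6761 protein-coding genes with a mean of at least 5 FPKM, were found by the root mean square difference of log2 values centred on DMSO. CDH1 was nearest to ARRDC3 (0.11), RND3 (0.14) and RHOB (0.18). These differences are larger than those of the other members' neighbours. ZEB1 was nearest to ATP13A3 (0.04), RANBP2 (0.05) and ELK4 (0.06). CDH2 was nearest to MSRB3, ZDHHC2 and MFSD6, at 0.03 each. EPCAM was nearest to CDC123, GABARAPL2 and SSR2, at 0.04 each. The neighbours of KRT8 were NDUFA4 (0.02), CLIC1 (0.03) and RPLP0 (0.03), and those of VIM were TOMM7 (0.02), TMSB10 (0.03) and RPL37A (0.03).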

How the data were processed

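RNA sequencing of 9 libraries was used, 3 per group, grouped by the titles in the labels. The deposited table named for read counts holds FPKM, and the authors' second table holds their log2 values, without a pseudocount, of the 18859 genes detected in every library; the tables agree within 0.005. The build is hg38 per the submitters' processing notes; aligner, counter and annotation release are not given in the sources used here. Multiplying FPKM by the deposited length gave whole fragments for these genes (tolerance 0.01), and so the depth. limma 3.58.1 (R 4.3.3; lmFit, eBayes with trend and robust) was fitted to log2(FPKM + 0.1) over all 9 libraries with group as the term, for the 15541 genes that reached 0.5 FPKM in 3 or more libraries. A gene was called at a Benjamini-Hochberg adjusted p under 0.05. The fit was tested on simulated data.

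The 8 genes and all lists were chosen with earlier results of these data known. From each list up to 3 genes with the smallest p at 50 nM, and 1 of the other direction, are named. Some genes under this rule are not reported here. For each called member the 3 nearest profiles are named. Alternatives were other pseudocounts (0.01 and 1), filters, scalings, a gene length trend, other fits and leaving out libraries. Replicate numbers do not mark shared cultures in the labels.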

Additional observations from a re-analysis of the deposited data

Results flagged for a closer look

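The effects of the 2 doses differed in 4 of the 7 tested genes, by the test of 50 nM against 25 nM itself (limma, adjusted over all tested genes). Both effects use the same 3 DMSO libraries. For 50 nM against 25 nM, 33.5% of all tested genes were called. KRT8 differed by -0.31 on the log2 scale. In the deposited FPKM its 25 nM libraries lay above and its 50 nM libraries below every DMSO library. The gap between 50 nM and DMSO was narrow, at most 108.8 FPKM against at least 109.5 FPKM. The difference of 50 nM from DMSO was not called, and it was -0.03 scaled to fragment totals. CDH2 differed by -0.25, with a fall at both doses. EPCAM differed by -0.23 and VIM by -0.23, both with a rise called at 25 nM and none at 50 nM. A rise of VIM at 50 nM against DMSO was called in 5 of 22 alternatives. The call between the doses was lost in 12 of 22 alternatives for EPCAM and in 8 of 22 for VIM. For KRT8 it was lost in 2 of 23 and for CDH2 in 2 of 22. No explanation was tested.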

How the results depend on the processing

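Against DMSO, the calls of CDH1, ZEB1, CDH2 at both doses and of EPCAM at 25 nM held in every alternative in which the gene was tested. None of the alternatives scaled the libraries to their sums of FPKM, which were higher in every treated library than in every DMSO library. The log2 fold change of CDH1 ranged from -1.71 to -1.11 at 25 nM and from -1.91 to -1.15 at 50 nM; it was not tested where at least 1 FPKM was asked of all libraries. With 1 library left out at a time, 6834 to 8014 genes and 5 to 7 members were called at 25 nM, 8331 to 10122 genes and 3 to 5 members at 50 nM, and 3441 to 5829 genes and 2 to 4 members between the doses. Between the doses 4 members were called; 2 were called with no filter on low values, scaled to fragment totals, with only the 6 libraries compared, or with voom on recovered fragments, and 1 under quantile normalization. Without both 50 nM libraries 1 and 2, chosen after seeing the data, the lone 50 nM library is assumed to vary like the others, and 1429 genes and 0 members were called between the doses. Values near 0 changed sign: at 50 nM against DMSO, EPCAM was -0.0095 and KRT8 0.017 with the gene length trend removed, and VIM was -0.012 under quantile normalization. At 50 nM against 25 nM, CDH1 was 0.013 scaled to fragment totals, 0.017 with voom and 0.0061 without both 50 nM libraries. KRT18 was 0.053 under quantile normalization and ranged from -0.21 to 0.010 with 1 library left out, ZEB1 ranged from -0.079 to 0.18 with 1 left out, both crossing 0 without the 25 nM replicate 3, and SNAI2 was 0.013 in the deposited log2 values. The cause was not tested. Scaling to fragment totals moved the median of all tested genes by -0.03, 0.07 and 0.09 in the 3 comparisons. With a replicate block, 6 members were called at 25 nM, 3 at 50 nM and 3 between the doses, where EPCAM was not called (-0.23, adjusted p = 0.0579). Same-numbered libraries did not deviate together (correlations -0.047 to 0.079), so the numbers were not taken as pairs. Low counts limit SNAI2, at 11 to 40 fragments per library.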

Other observations

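Several mesenchymal or keratin transcripts that were at or near 0 elsewhere were listed in the 50 nM replicates 1 and 2; they were picked after the values were seen. COL3A1 was listed at 0 in DMSO, had 0 to 0.00568 FPKM at 25 nM and 0.204, 0.215 and 0.0108 FPKM in the 3 libraries of 50 nM. COL1A2 had 0.142, 0.0967 and 0.00329 FPKM at 50 nM and was listed at 0 in the other 6 libraries. KRT17 had 0 to 0.0437 FPKM in DMSO, 0.0163 to 0.128 FPKM at 25 nM and 0.503, 0.258 and 0 FPKM at 50 nM. TWIST1, a transcription factor of the mesenchymal state, had 0.0761 and 0.0569 FPKM in those 2 libraries and was listed at 0 in the other 7. The fit of the members was repeated without these 2 libraries, which leaves 1 library at 50 nM, whose spread could not be measured. At 50 nM against DMSO, CDH1 was then -1.59, ZEB1 -0.74 and CDH2 -0.49 on the log2 scale. VIM moved from 0.13 to 0.21, KRT18 from 0.11 to 0.18 and EPCAM from 0.06 to 0.10, and KRT8 was -0.10 in both fits.

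Among the epithelial regulators, the call of the microRNA hairpin MIR200B at 50 nM (1.14 ± 0.162 FPKM, against 0.325 ± 0.333 FPKM in DMSO, SD, n = 3 each) concerns a very short gene.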
